A study of Mus musculus with 12 samples.

Results

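Of the 48795 genes in the deposited tables, 10 NF-κB genes were examined: the subunit genes Nfkb1, Nfkb2, Rela and Relb, the inhibitor genes Nfkbia, Nfkbie and Tnfaip3, and the target genes Birc3, Vcam1 and Icam1. They were chosen by symbol for the roles of their products, because AEBP1 has been reported to lower IκBα, which Nfkbia encodes. Each symbol matched 1 Ensembl identifier. The rule uses no measured value, but the members were chosen with earlier results of these data known. Ribosome-depleted total RNA had been sequenced from Aebp1 knockout clones F5, G5 and H7 of NIH3T3, an immortalised mouse embryo fibroblast line, and from wild-type parental NIH3T3. Each clone was sampled at passages 7, 8 and 9 and the parental line at passages 6, 7 and 8, which gave 3 libraries per line and 12 in all. All lines grew in DMEM/F12 with fetal bovine serum, and the labels name no cytokine or other stimulus. Every clone carries both the cloning step and the Aebp1 knockout, and no parental library carries either, so the effects of both cannot be told apart. The labels name passages but not separate cultures, so the p-values below measure spread among these libraries alone, and that spread may be technical.

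NF-κB factors are dimers of Rel-family proteins. RELA and RELB carry transactivation domains, while NFKB1 and NFKB2 are made as the precursors p105 and p100, which are processed to p50 and p52. In resting cells IκB proteins such as IκBα and IκBε hold the dimers in the cytoplasm until the IκB kinase complex marks them for degradation. Many regulators of the pathway are themselves induced by it, among them IκBα and A20, the ubiquitin-editing enzyme that Tnfaip3 encodes, which closes a negative feedback loop. In fibroblasts the pathway is known for inducing adhesion molecules, chemokines and survival genes in answer to tumour necrosis factor and interleukin-1.

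The promoters of the regulators are shown because this feedback runs through κB sites. RefSeq promoter windows on GRCm38.p6, each from 250 bases before to 50 bases after a transcript start, were found for 7 of the 10 genes, 10 windows in all. They were searched on both strands for the 10-base NF-κB consensus, whose matches may overlap one another. Nfkb2, Nfkbia, Nfkbie and Tnfaip3 had at least 1 match, while Rela, Birc3 and Icam1 had no match within their windows. Among all 32851 windows of the table, 4.51% held a match. Counted by gene, 5.14% of 27025 genes had a match in at least 1 window. A match describes these letters and not binding. In the stretches that follow, printed 5′ to 3′ on the gene's strand, capitals mark bases that match the consensus on either strand, with overlapping matches joined in Nfkb2. The stretches of Nfkbia (chr12:55492648-55492706, minus strand) and Nfkbie (chr17:45555564-45555633, plus strand) lie outside the annotated genes. The Nfkb2 stretch (chr19:46304689-46304718, plus strand) is exonic and the Tnfaip3 stretch (chr10:19015411-19015432, minus strand) intronic in the GENCODE M21 annotation of those genes.
Nfkbia: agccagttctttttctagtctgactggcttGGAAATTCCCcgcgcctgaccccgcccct
Nfkbie: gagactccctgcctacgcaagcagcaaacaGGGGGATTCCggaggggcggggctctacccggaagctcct
Nfkb2: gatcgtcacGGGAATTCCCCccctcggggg
Tnfaip3: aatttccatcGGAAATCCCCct

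**Figure D1:**
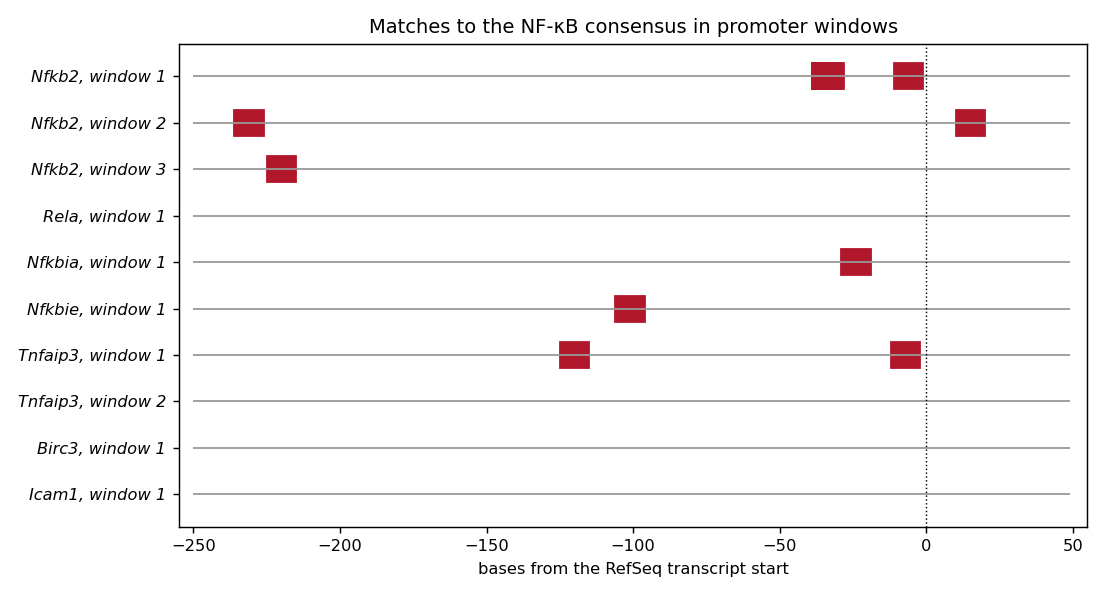
Matches to the NF-κB consensus (red blocks) along 10 RefSeq promoter windows of 7 NF-κB genes; the x axis gives bases from the transcript start, and the dotted line marks that start. Nfkb2, Nfkbia, Nfkbie and Tnfaip3 have matches, and each of Nfkb2, Nfkbia and Tnfaip3 has one within 50 bases of a start.

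Library totals lay between 22088714 and 31329755 estimated counts. Aebp1 RNA, which does not by itself show the state of the protein, remained at 34.9% of its parental level in F5, at 23.2% in G5 and at 26.6% in H7. All 6 fibroblast markers were expressed, with summed levels of 21756 to 24977 CPM in clone libraries and 22683.5 to 25530 CPM in parental libraries, where CPM is counts per 1000000 after TMM scaling. The 4 endothelial markers summed to at most 1.19 CPM in clones and 0.537 CPM in the parental line, with Kdr at 0. The 4 epithelial markers summed to at most 0.959 CPM in clones and 0.308 CPM in the parental line, with Epcam at 0. Of the blood cell markers, Adgre1 and Cd3e were at 0 in all 12 libraries, Ptprc reached at most 0.592 CPM, Csf1r lay between 1.15 and 3.79 CPM and Cd68 between 3.04 and 4.90 CPM. Averaged over the lines, the middle passage stood apart, since 32.1% of all genes differed between it and the outer passages within lines. It was passage 7 in the parental line and passage 8 in the clones. Whether it stood apart in each line singly was not tested.

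On the per-length scale of the deposited TPM values (length-scaled, summing to 1000000 per library), the order of the levels was nearly the same in every line. In F5 the mean levels were 53.0 TPM for Nfkb1, 42.0 for Nfkb2, 37.9 for Rela, 22.5 for Vcam1, 12.5 for Nfkbia, 6.92 for Relb, 5.99 for Birc3, 3.09 for Nfkbie and 1.77 for Tnfaip3. The ranges of Relb and Birc3 overlapped there, and no other neighbours in the order did. G5 kept the same order with no overlap between neighbours. In H7 the ranges of Nfkb1 and Nfkb2 overlapped, as did those of Nfkbia and Relb. In the parental line Nfkb2 stood first at 51.5 ± 7.04 TPM and Nfkb1 second at 48.6 ± 2.70 TPM (SD, n = 3), with overlapping ranges. Rela and Vcam1 overlapped there as well, at 38.1 and 34.9 TPM, and so did Nfkbia, Relb and Birc3 in sequence, at 15.1, 11.1 and 7.82 TPM. Nfkb1, Nfkb2 and Rela had the 3 highest mean levels in all 4 lines, and Tnfaip3 had the lowest of the members that could be tested.

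Icam1, an adhesion molecule for leukocyte integrins, was almost undetected. It had 0 counts in the 3 F5 libraries and the 3 G5 libraries, 2 counts in H7 and 4 in the parental line. At 0 counts the limit, set at 3 counts over the libraries of a line, was 0.0358 CPM in F5 and 0.0398 CPM in G5. A difference between lines was not detectable at this depth, and Icam1 was the 1 member that did not pass the filter on low counts.

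**Figure D2:**
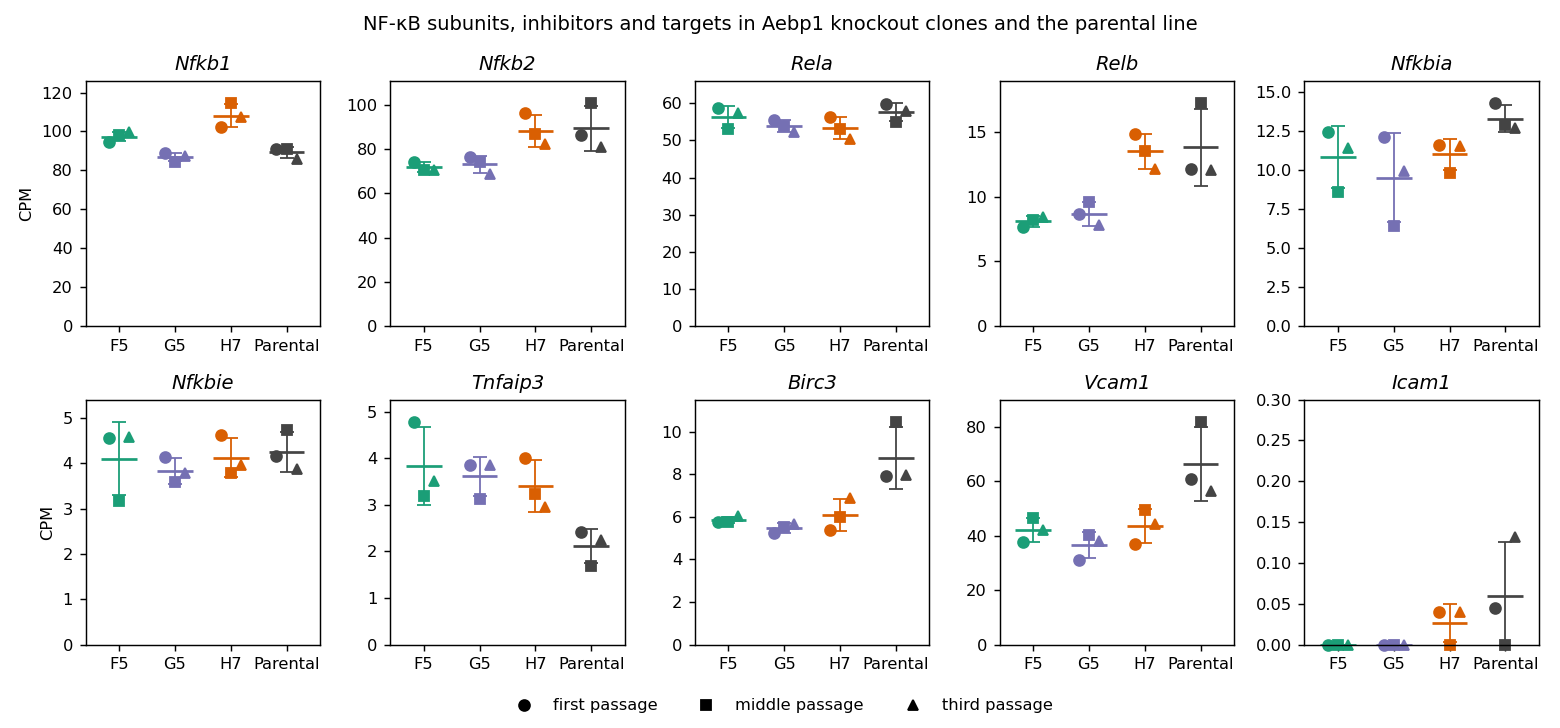
CPM of each NF-κB gene in every library, with clones F5, G5 and H7 left of the parental line; bars give the mean and SD of 3 libraries, and symbols mark the first, the middle and the last passage. Tnfaip3 lies above and Nfkbia, Birc3 and Vcam1 lie below the parental range in all 9 clone libraries. Of all genes tested, 5.50% lay wholly above and 5.16% wholly below in the same way.

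The comparison of the clones with the parental line asks whether NF-κB genes differ where Aebp1 is knocked out. In the mean of the 3 clones, Tnfaip3 rose and Relb, Birc3 and Vcam1 fell, so that 4 of 9 tested members were called (adjusted p under 0.05), beside 19.0% of all 14704 genes tested (8.55% higher and 10.5% lower). The other 5 tested members, Nfkb1, Nfkb2, Rela, Nfkbia and Nfkbie, did not pass the test. For F5 alone, 1 member rose and 4 fell, beside 14.3% of all genes (6.88% higher and 7.37% lower). For G5 the members called were 1 higher and 3 lower, beside 13.1% of all genes (6.54% and 6.56%). For H7 they were 2 higher and 2 lower, beside 19.6% (9.64% and 9.92%). The median log2 fold change of the 9 tested members was −0.21 in the mean of the clones, against −0.02 over all genes. For the single clones F5, G5 and H7 it was −0.30, −0.29 and −0.05, against −0.01, −0.01 and −0.02 over all genes. Over all genes the mean of the clones had 1257 higher and 1543 lower calls, while limma on log2(TPM + 1) gave 1344 higher and 963 lower. The clones share their parental libraries, so their comparisons are not independent of each other. In bulk RNA, fewer cells expressing a gene and less RNA per cell cannot be told apart.

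**Figure D3:**
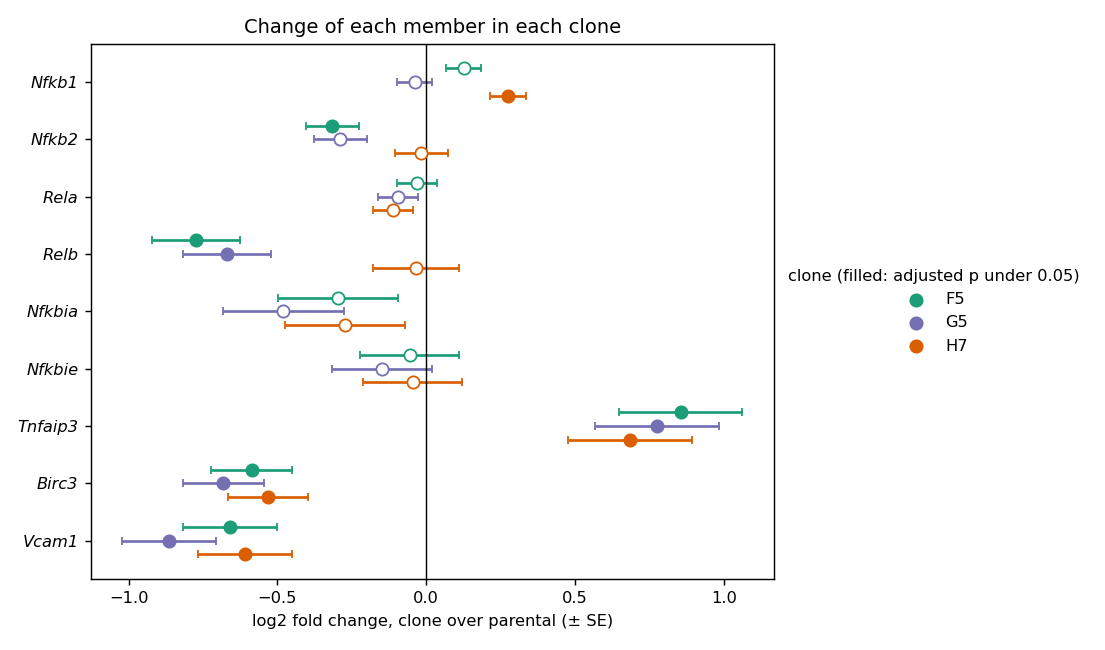
Log2 fold change of 9 NF-κB genes in each clone over the parental line, with SE; filled points passed an adjusted p of 0.05. Tnfaip3, Birc3 and Vcam1 each changed in the same direction in all 3 clones, whereas Relb fell in F5 and G5 and stood at −0.03 in H7.

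Among the subunits, Relb, the transactivating partner of p52 in the non-canonical pathway (chr7:19606217-19629438, minus strand, GRCm38), separated the clones. At passages 7, 8 and 9 it stood at 7.62, 8.19 and 8.45 CPM in F5, at 8.66, 9.61 and 7.77 CPM in G5 and at 14.8, 13.5 and 12.1 CPM in H7, against 12.1, 17.2 and 12.1 CPM at passages 6, 7 and 8 of the parental line. Every F5 and G5 library lay below every parental library, as held for 15.1% of all genes in F5 and 14.2% in G5, while the H7 libraries lay within the parental range. Relb fell in F5 (log2 fold change −0.77, SE 0.15, adjusted p = 0.0060) and in G5 (−0.67, SE 0.15, adjusted p = 0.0132), and H7 had a value of −0.03 (SE 0.15, adjusted p = 0.901). In the mean of the clones it was −0.49 (SE 0.12, adjusted p = 0.0140), and without parental passage 7 it was −0.30 (adjusted p = 0.0676). Without G5 passage 9 the G5 call was lost (adjusted p = 0.0576), and limma on log2(TPM + 1) did not call the mean (adjusted p = 0.0532). Chromosome 7, which carries Relb, had a median log2 fold change of −0.20 over 1127 genes in F5 and −0.08 in G5. Relative to those medians Relb stood at −0.58 in F5 (adjusted p = 0.0264) and −0.59 in G5 (adjusted p = 0.0240).

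Nfkb2, whose p100 product is processed to the p52 partner of RELB, showed a smaller difference with the same clones apart. It stood at 74.3, 70.6 and 70.5 CPM in F5, 76.6, 74.1 and 68.8 CPM in G5 and 96.3, 86.7 and 82.1 CPM in H7, against 86.5, 100.7 and 80.8 CPM in the parental line. F5 and G5 again lay wholly below the parental libraries, as held for 15.1% of all genes in F5 and 14.2% in G5, and H7 overlapped them. It fell by 0.32 on the log2 scale in F5 (SE 0.09, adjusted p = 0.0388), while G5 had −0.29 (SE 0.09, adjusted p = 0.0577) and H7 had −0.02 (SE 0.09, adjusted p = 0.926). The F5 call was lost on leaving out any of 8 libraries, with adjusted p between 0.0513 and 0.127. Those were parental passages 6 and 7, all 3 F5 passages, G5 passages 7 and 9 and H7 passage 9. It was also lost without the low-count filter (adjusted p = 0.0715), by limma on either TPM scale (adjusted p = 0.0937 and 0.0933) and without the middle passages (adjusted p = 0.202). Conversely, Nfkb2 was called lower in G5 by DESeq2 (adjusted p = 0.0286), with chromosome medians removed (adjusted p = 0.0342) and without parental passage 8 (adjusted p = 0.0369). The difference between F5 and G5 was −0.03 on the log2 scale (SE 0.09).

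Nfkb1, the source of p50, stood at 94.6, 98.0 and 99.5 CPM in F5, 88.8, 84.5 and 87.4 CPM in G5 and 102, 114 and 107 CPM in H7, against 90.8, 91.1 and 85.9 CPM in the parental line. It rose in H7 by 0.28 on the log2 scale (SE 0.06, adjusted p = 0.0083). All H7 and F5 libraries lay above the parental ones, as held for 16.7% of all genes in H7 and 15.0% in F5, but F5 did not pass the test (0.13, SE 0.06, adjusted p = 0.195), and G5 overlapped the parental range. Rela, the main transactivating subunit, lay between 50.3 and 58.6 CPM in the 9 clone libraries and between 54.98 and 59.8 CPM in the parental ones. Its log2 fold change in the mean of the clones was −0.08 (SE 0.05, adjusted p = 0.343).

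The inhibitors did not move together. Tnfaip3 (chr10:19000910-19015657, minus strand) stood at 4.79, 3.20 and 3.51 CPM in F5, 3.85, 3.13 and 3.87 CPM in G5 and 4.02, 3.24 and 2.95 CPM in H7, against 2.42, 1.70 and 2.24 CPM in the parental line. All 9 clone libraries lay above the 3 parental libraries, as they did for 5.50% of all genes tested. Tnfaip3 rose in F5 (log2 fold change 0.86, SE 0.21, adjusted p = 0.0198), G5 (0.78, SE 0.21, adjusted p = 0.0327), H7 (0.69, SE 0.21, adjusted p = 0.0398) and their mean (0.77, SE 0.18, adjusted p = 0.0118). Each library held only 43 to 125 counts of it. Without parental passage 7 the mean lost its call (0.63, adjusted p = 0.0532). The F5 call was lost without parental passage 7 or F5 passage 7. The G5 call was lost without parental passage 7 or 8, G5 passage 7 or 9 or H7 passage 8, and the H7 call without parental passage 7 or 8, F5 passage 9, G5 passage 9 or H7 passage 7 or 8 (adjusted p between 0.0517 and 0.153). The H7 call was lost as well without the low-count filter and by limma on either TPM scale (adjusted p = 0.0526, 0.0981 and 0.0836). Without the middle passages none of the 3 clones was called singly (adjusted p = 0.0534 in F5, 0.0876 in G5 and 0.122 in H7). Chromosome 10 had a median of −0.21 in H7, relative to which Tnfaip3 stood at 0.89 there (adjusted p = 0.0157).

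Nfkbia (chr12:55489410-55492647, minus strand), the gene of the inhibitor that AEBP1 is reported to lower, stood at 12.4, 8.60 and 11.4 CPM in F5, 12.1, 6.44 and 9.92 CPM in G5 and 11.6, 9.83 and 11.6 CPM in H7, against 14.3, 12.9 and 12.7 CPM in the parental line. All 9 clone libraries lay below all 3 parental libraries, which held for 5.16% of all genes tested, but the gap between the nearest pair was small. The difference did not pass the test in the mean of the clones (−0.35, SE 0.16, adjusted p = 0.160) or in any clone. The log2 fold change was −0.30 in F5 (adjusted p = 0.368), −0.48 in G5 (adjusted p = 0.149) and −0.27 in H7 (adjusted p = 0.395). The G5 value rests on passage 8, without which it was −0.28, and the F5 value was −0.15 without F5 passage 8. These values come from the fit with line as the only term. An alternative fit with the place in the order of passages as a block called Nfkbia lower in the mean (−0.37, adjusted p = 0.0204). It also called Nfkbia lower in G5 (−0.51, adjusted p = 0.0159), although the labels do not pair libraries by place. These are transcript levels, and the IκBα protein was not measured in these files. Nfkbie, which encodes IκBε, lay between 3.17 and 4.62 CPM in clone libraries and between 3.87 and 4.74 CPM in parental ones (mean of the clones −0.08, SE 0.14, adjusted p = 0.717).

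Both measurable targets fell in every clone. Vcam1, the endothelial and stromal ligand of integrin α4β1 (chr3:116109949-116129688, minus strand), stood at 37.6, 46.4 and 42.0 CPM in F5, 31.3, 40.4 and 38.0 CPM in G5 and 36.9, 49.3 and 44.4 CPM in H7, against 60.9, 81.9 and 56.5 CPM in the parental line. The highest clone library lay below the lowest parental one, as held for 5.16% of all genes tested. It fell by 0.66 in F5 (SE 0.16, adjusted p = 0.0182), by 0.86 in G5 (SE 0.16, adjusted p = 0.0050) and by 0.61 in H7 (SE 0.16, adjusted p = 0.0193) on the log2 scale. In the mean of the clones it fell by 0.71 (SE 0.12, adjusted p = 0.0027). The F5 call was lost without F5 passage 7 or 9 (adjusted p = 0.0775 and 0.0613). The H7 call was lost without H7 passage 7 or 9 or parental passage 7 (adjusted p between 0.0513 and 0.0835), whereas the call of the mean held on leaving out each library in turn.

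Birc3, which encodes the survival factor cIAP2, stood at 5.75, 5.78 and 6.02 CPM in F5, 5.23, 5.53 and 5.66 CPM in G5 and 5.37, 5.97 and 6.90 CPM in H7, against 7.92, 10.5 and 7.95 CPM in the parental line. No clone library reached the lowest parental one, as held for 5.16% of all genes tested. Birc3 fell by 0.59 in F5 (SE 0.13, adjusted p = 0.0155), by 0.68 in G5 (SE 0.14, adjusted p = 0.0078), by 0.53 in H7 (SE 0.13, adjusted p = 0.0179) and by 0.60 in their mean (SE 0.11, adjusted p = 0.0031). On the deposited TPM values the mean was −0.37 with log2(TPM + 1) and −0.41 with log2(TPM + 0.1), and limma called neither (adjusted p = 0.0714 and 0.0715), nor any single clone. The F5 call was lost without F5 passage 7 or 8 (adjusted p = 0.0580 and 0.0509), and the H7 call without parental passage 7 or H7 passage 7 or 8 (adjusted p between 0.0519 and 0.0779).

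Differences between clones were tested directly. F5 and G5 differed in 0 of the 9 tested members by edgeR and by DESeq2 (1 at an unadjusted p under 0.05 by each), beside 0.258% of all genes. Against H7, Relb was lower in F5 (log2 fold change −0.74, SE 0.15, adjusted p = 0.0055) and in G5 (−0.64, SE 0.15, adjusted p = 0.0120). Nfkb2 was lower in F5 than in H7 (−0.30, SE 0.09, adjusted p = 0.0396), and Nfkb1 was lower in G5 than in H7 (−0.32, SE 0.06, adjusted p = 0.0041). These calls stand beside 17.9% of all genes called between F5 and H7 (8.49% lower in F5) and 17.4% between G5 and H7 (8.51% lower in G5). The Relb difference of G5 from H7 was lost without G5 passage 9 or H7 passage 7 (adjusted p = 0.0546 and 0.0510). That of Nfkb2 between F5 and H7 was lost without any F5 or any H7 library or without G5 passage 7 (adjusted p between 0.0503 and 0.149), and also without the low-count filter (adjusted p = 0.0575) and by limma on either TPM scale (adjusted p = 0.0992 and 0.0966). In G5 against H7, Nfkb2 had a similar value that did not pass the test (−0.27, SE 0.09, adjusted p = 0.0592). It was called lower there by DESeq2 (adjusted p = 0.0306) and with chromosome medians removed (adjusted p = 0.0171). Blocks for passage number or place also called it, as did leaving out parental passage 7 or 8. The other alternatives did not.

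Passages within a line also differed. Averaged over the lines, Nfkbia was lower in the middle passage than in the outer passages (log2 fold change −0.37, SE 0.10, adjusted p = 0.0181), and Vcam1 was higher (0.31, SE 0.06, adjusted p = 0.0049). Nfkbia was lowest in the middle passage of each clone, and its parental values at the middle and the last passage nearly coincided. On the CPM scale Vcam1 was highest in the middle passage of all 4 lines, whereas on the TPM scale G5 had 21.3 at the middle and 21.8 at the last passage. Those 2 of 9 members stand beside 32.1% of all genes called in the same comparison (16.5% higher and 15.6% lower). The Nfkbia call was lost without F5 passage 8 or G5 passage 8 (adjusted p = 0.0733 and 0.0557). Between the last and the first passage edgeR and DESeq2 called 0 members (1 at an unadjusted p under 0.05 by each), beside 1.12% of all genes. With all middle passages left out, an alternative chosen after seeing the data, the clones on average had 3 members called, with Tnfaip3 higher and Birc3 and Vcam1 lower, while Relb was not called (−0.33, adjusted p = 0.0761). Over all genes the same fit gave 2177 calls (1025 higher and 1152 lower).

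**Figure D4:**
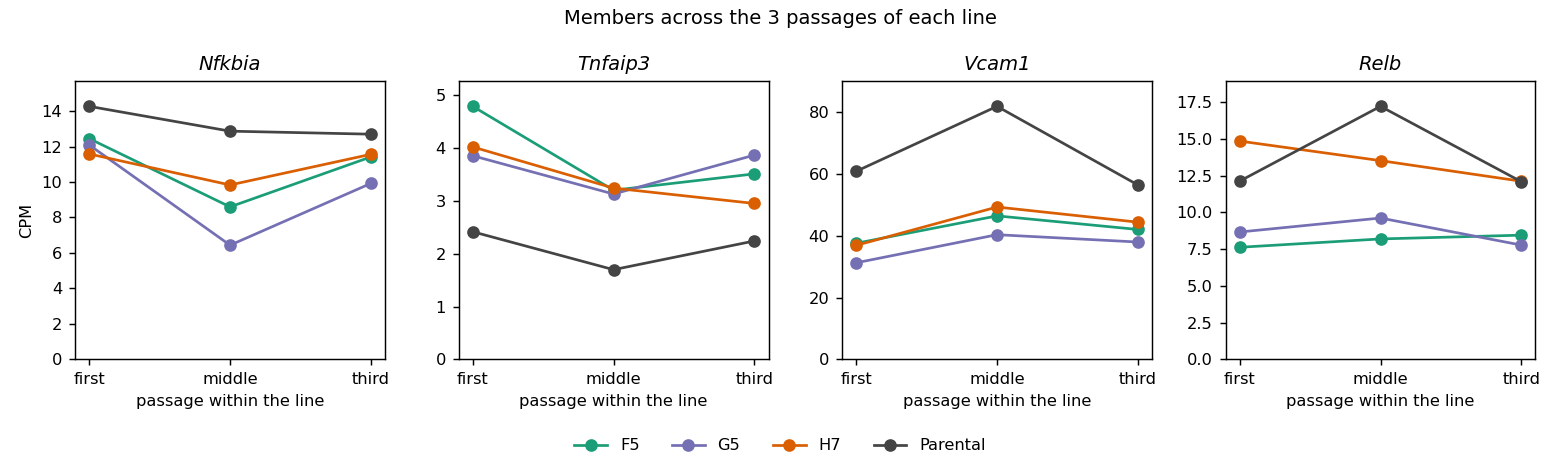
CPM of Nfkbia, Tnfaip3, Vcam1 and Relb at the first, the middle and the last passage of clones F5, G5 and H7 and of the parental line; each line joins the 3 libraries of 1 cell line. In CPM, Vcam1 peaks at the middle passage of all 4 lines, and Nfkbia is lowest there in each clone.

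The wider pathway was read from a list of 98 other genes, of which 74 passed the filter. On average over the clones 5 rose and 11 fell, beside 19.0% of all genes called, with a median log2 fold change of −0.12 against −0.02 over all genes. The clones F5 and G5 each had 4 higher and 12 lower genes of the list, and H7 had 8 higher and 11 lower, beside 14.3%, 13.1% and 19.6% of all genes called in F5, G5 and H7. With the median of each chromosome removed, 6 rose and 2 fell in H7, and the share of all genes called in that setting is not given here. Of the 10 listed ligands 7 did not pass the filter, among them Tnf, Il1a and Il1b.

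Of the receptors 4 of 10 tested genes fell in the mean of the clones, with a median log2 fold change of −0.38, and none rose there. These and the counts by role that follow stand beside 8.55% of all genes higher and 10.5% lower in the same comparison. In H7 alone 1 receptor was called higher and 4 lower, beside 9.64% and 9.92% of all genes. Il1r1, the signalling receptor of interleukin-1, averaged 76.0 ± 8.38 CPM in F5, 75.4 ± 10.1 CPM in G5 and 84.2 ± 11.03 CPM in H7, against 140 ± 39.2 CPM in the parental line (SD, n = 3 each). It fell in the mean of the clones (log2 fold change −0.83, SE 0.14, adjusted p = 0.0022), or by 0.58 without parental passage 7 (adjusted p = 0.0062). With chromosome medians removed Il1r1 was still called in the mean (−0.71, adjusted p = 0.0058) but not in H7 (−0.59, adjusted p = 0.0503). Tnfrsf1a, the main receptor of tumour necrosis factor, averaged 113, 109 and 101 CPM in F5, G5 and H7, against 136 CPM in the parental line. Its log2 fold change in the mean of the clones was −0.34 (SE 0.06, adjusted p = 0.0044). In H7 it was −0.43, on chromosome 6, whose median there was −0.22. With chromosome medians removed Tnfrsf1a had −0.21 in H7 (adjusted p = 0.113) and was still called in F5, in G5 and in the mean. Il1rap, the accessory chain of the interleukin-1 receptor, fell in F5 (by 1.16) and G5 (by 1.29) on the log2 scale, while H7 had 0.16 (adjusted p = 0.666). Its difference from H7 was −1.32 in F5 (adjusted p = 0.0022) and −1.45 in G5 (adjusted p = 0.0012). In the mean of the clones it was −0.76 (adjusted p = 0.0112), or −0.44 without parental passage 7 (adjusted p = 0.0550). Tnfrsf11a, which encodes the receptor RANK, had 207 counts over the F5 libraries, 17 over the G5 libraries and 0 over the H7 libraries, against 303 over the parental ones. It fell in G5 (log2 fold change −4.21, SE 0.44, adjusted p = 0.00051), and F5 did not pass the test (−0.82, adjusted p = 0.147). In H7, with 0 counts, the parental level stood 111-fold above the limit of 3 counts over the line. The lower bound of the Poisson interval for that ratio, which covers counting error only, was 90.0-fold.

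Among subunits and inhibitors outside the 10 genes, 2 of 14 rose and 1 fell. Bcl3, an atypical IκB that acts with p50 and p52 in the nucleus, stood at 5.36, 8.57 and 5.94 CPM in F5, 4.67, 11.4 and 6.18 CPM in G5 and 8.28, 14.8 and 12.6 CPM in H7, against 13.1, 31.4 and 13.8 CPM in the parental line. Its mean log2 fold change was −1.22 (SE 0.30, adjusted p = 0.0177), or −0.69 without parental passage 7 (adjusted p = 0.134). Otulin, a deubiquitinase of linear chains, rose by 0.78 in H7 (adjusted p = 4.06e-05), on chromosome 15, whose median there was 0.45. Its call in the mean of the clones (0.36, adjusted p = 0.0018) was lost with chromosome medians removed (0.18, adjusted p = 0.0593), whereas the H7 rise was still called relative to its chromosome (0.33, adjusted p = 0.0090). N4bp1 rose by 0.20 in the mean of the clones (adjusted p = 0.0241), a call that was lost without parental passage 6 or 8. Of kinases and adaptors 2 of 26 rose and 2 fell. Tab1, which activates the kinase TAK1, averaged 36.6 CPM in F5, 37.03 CPM in G5 and 36.6 CPM in H7, against 26.2 CPM in the parental line (0.49, SE 0.07, adjusted p = 0.0011). It also lies on chromosome 15, and relative to that chromosome its values were 0.42 for F5 and 0.46 for G5, while H7 had 0.04 (adjusted p = 0.823). Rbck1, of the linear ubiquitin ligase, rose by 0.36, and the kinases Tbk1 and Map3k14 fell by 0.19 and by 0.31 (adjusted p = 0.0234, 0.0130 and 0.0383). Rbck1 lost its call without parental passage 7 or 8 (adjusted p = 0.0906 and 0.0640). Map3k14 lost it without parental passage 7, F5 passage 7 or 9, G5 passage 8 or 9 or H7 passage 7 or 9, and stood at −0.18 without the first of these (adjusted p = 0.185). It was also lost without the low-count filter (adjusted p = 0.0590). Tbk1 lost its call with chromosome medians removed (adjusted p = 0.0881) and without the low-count filter (adjusted p = 0.0724). Tbk1, Map3k14 and Rbck1 were not called without the middle passages (adjusted p = 0.0727, 0.0739 and 0.152).

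Among the other targets tested, 1 of 21 rose and 4 fell. Ier3, an early response gene, fell by 0.64 (SE 0.13, adjusted p = 0.0061), or by 0.40 without parental passage 8. Sdc4, a cell-surface proteoglycan, fell by 0.41 (SE 0.10, adjusted p = 0.0133), and Cflar, an inhibitor of caspase-8 activation, fell by 0.24 (SE 0.07, adjusted p = 0.0357). Myc, a growth-promoting transcription factor, rose by 0.72 (SE 0.20, adjusted p = 0.0308). Sdc4 lost its call without parental passage 7 or 8 (adjusted p = 0.0622 and 0.0633). Cflar lost it without parental passage 7 or 8, F5 passage 7 or 9, G5 passage 7 or H7 passage 7 or 9 (adjusted p up to 0.149). It was lost as well by limma on either TPM scale, without the low-count filter and without the middle passages (adjusted p = 0.0569, 0.0564, 0.0671 and 0.129). Myc lost it without parental passage 8 or H7 passage 7 (adjusted p = 0.0521 and 0.0527) and stood at 0.45 without parental passage 7. With chromosome medians removed Myc and Cflar were not called (adjusted p = 0.0931 and 0.282). The chemokines Ccl2 and Ccl7, picked out after their values were seen, went opposite ways between clones. Ccl2 averaged 1.82 CPM in F5, 1.53 CPM in G5 and 10.2 CPM in H7, against 4.13 CPM in the parental line, and Ccl7 averaged 1.46, 1.07 and 10.5 CPM, against 3.37 CPM. Both fell in F5 and G5 and rose in H7. The difference of F5 from H7 was −2.49 for Ccl2 (adjusted p = 0.00017) and −2.83 for Ccl7 (adjusted p = 0.00015).

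**Figure D5:**
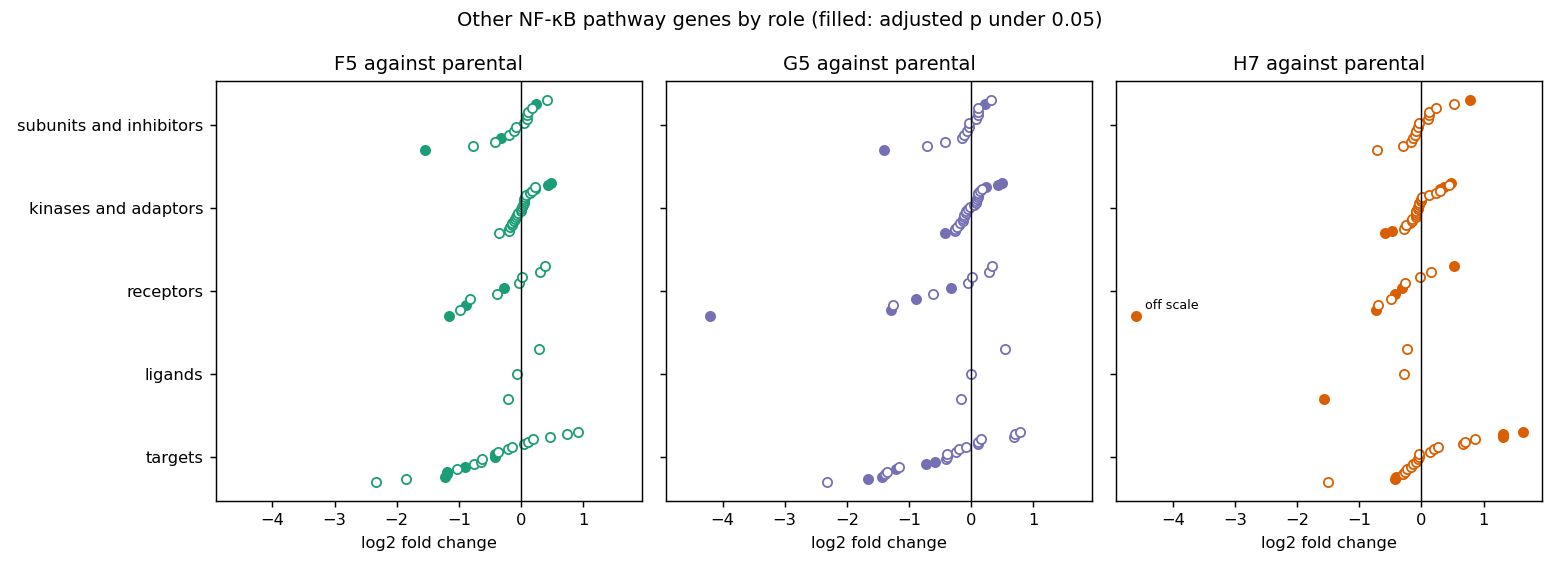
Log2 fold change over the parental line of the 74 tested other NF-κB pathway genes, by role, in F5, G5 and H7; filled points passed an adjusted p of 0.05, and 1 receptor, Tnfrsf11a, lies off the scale in H7. Receptors lie mostly left of 0. Of the 10 tested, 3 were called lower in F5, 4 in G5 and 4 in H7, where 1 was called higher. Over all genes 7.37%, 6.56% and 9.92% were lower in F5, G5 and H7, and 9.64% were higher in H7.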

How the data were processed

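The authors deposited estimated counts for 48795 Ensembl genes, not normalised, of which 86.9% (among values above 0.5) were whole to a tolerance of 0.01. They also deposited TPM values, for which every library sums to 1000000. Build GRCm38 is named in the submitters' processing notes. For the aligner, counter, annotation release and strand setting used, nothing is given in the sources used here, so overlapping, antisense or near-identical genes are uncertain. Symbols and coordinates came from GENCODE M21, which matched 48349 identifiers.

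Counts were rounded. Genes were filtered with filterByExpr over the 4 lines, which left 14704, and fitted with edgeR's quasi-likelihood test (edgeR 4.0.16, R 4.3.3), with TMM factors, line as the only term and 12 libraries in 1 fit. P-values were adjusted by Benjamini-Hochberg over all genes tested. Standard errors were taken from the F statistic. Passages were compared in a second fit that adds the place in the order of passages. The scripts were tested on simulated data.

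Alternatives were median-ratio size factors, no filter, DESeq2 1.42.0, limma 3.58.1 on log2(TPM + 1) and log2(TPM + 0.1), blocks for passage number or place, removal of chromosome medians and leaving out each library. CPM uses TMM factors, and limits of 3 counts cover counting error only. The members and gene lists were chosen with earlier results of these data known. All 10 members were named, together with up to 4 other pathway genes per role that were called in the mean of the clones, by smallest adjusted p. Ccl2, Ccl7 and the ligands listed as filtered out were named after their values were seen. The rule for genes of like pattern asked for line means spanning at least 1 on the log2 scale, which no member reached. 1 blood cell marker is not reported here.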

Additional observations from a re-analysis of the deposited data

Results flagged for a closer look

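Effects of the knockout clones differed from each other, by the test of the difference itself, in 4 cases. Relb was lower in F5 than in H7 by a log2 fold change of −0.74 and in G5 than in H7 by one of −0.64. Nfkb2 was lower in F5 than in H7 by −0.30. Nfkb1 was lower in G5 than in H7 by −0.32. In each case H7 was the higher clone.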

How the results depend on the processing

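No call of a member reversed its direction under any alternative. The numbers of members called were the most sensitive values, because several adjusted p-values lay close to 0.05. For the mean of the clones 4 members were called, 2 with limma on log2(TPM + 1), and 2 to 5 on leaving out each library. For F5 5 were called, 3 with limma on either TPM scale and 2 without the middle passages (1 to 5 on leaving out each library). For G5 4 were called, 2 without the middle passages (2 to 4). For H7 4 were called, 2 with limma on either TPM scale and 2 without the middle passages (1 to 4). Between F5 and H7 2 were called, and 1 without the low-count filter, with limma on either TPM scale and without the middle passages (1 to 2). Between G5 and H7 2 were called (1 to 3 on leaving out each library), between the middle and outer passages 2 (1 to 3), and between the third and first passages 0 (0 to 1). Of the other pathway genes 16 were called in the mean (11 to 18). In F5 16 were called, 9 with limma on either TPM scale and 8 without the middle passages (5 to 16), in G5 16, 9 and 9 (8 to 19), and in H7 19, or 8 with chromosome medians removed (11 to 19). Over all genes the mean of the clones gave 2800 calls (2099 to 2756 on leaving out each library).

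The labels' passage numbers do not pair the libraries. Deviations from line means correlated between −0.618 and 0.619 for equal passage numbers in different lines, and between 0.0756 and 0.619 (median 0.441) for equal places in the order, and 11 of 12 libraries correlated best with a library of their own place. With passage number as a block, 12 other pathway genes were called in H7, and Tnfaip3 was not called in G5 or H7 (adjusted p = 0.0517 and 0.0585). Over all genes that fit gave 2333 calls in the mean of the clones, and the share for H7 is not given here. With the place as a block, the mean of the clones gave 4908 calls over all genes, against 2800 without it. The other pathway genes called were 36 in the mean, 31 in F5, 32 in G5 and 30 in H7. Between G5 and H7 4 members differed. For the single clones and for G5 against H7, the shares of all genes with that block are not given here. The counts with that block therefore cannot be read as particular to NF-κB genes. That fit called 6 members in the mean and 6 in G5. It added Nfkbia in the mean (−0.37, adjusted p = 0.0204) and in G5 (−0.51, adjusted p = 0.0159), and Nfkb2 in the mean (−0.21, adjusted p = 0.0194) and in G5 (−0.29, adjusted p = 0.0136). Depth limits Tnfaip3, with 43 to 125 counts per library, and Icam1.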

Other observations

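Relb and Bcl3 lie 179 kb apart on chromosome 7 (Bcl3 at chr7:19808462-19822770, minus strand). Both fell in F5 and G5 against the parental line, a pattern picked out after the values were seen. In H7 Relb had −0.03 and Bcl3 −0.71 on the log2 scale, and neither passed the test (adjusted p = 0.901 and 0.245). Unlike Relb, Bcl3 in F5 and G5 was not called different from H7 (adjusted p = 0.187 and 0.296). With chromosome medians removed, Bcl3 was −1.35 in F5 (adjusted p = 0.04995) and was not called in G5 (−1.32, adjusted p = 0.0548). Of the 28 genes tested within 500 kb of Relb, leaving out both, 7 fell in F5 and 3 in G5, beside 7.37% and 6.56% of all genes lower in those clones, and 1 rose in H7, beside 9.64% higher. Their median log2 fold change was −0.29 in F5, −0.06 in G5 and 0.04 in H7, against chromosome medians of −0.20, −0.08 and −0.03. Eml2, within that stretch, fell by 2.70 on the log2 scale in F5 (adjusted p = 0.0014) and did not pass the test in G5 or H7.

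Genes with a profile like that of a called member were sought after the values were seen, by the smallest root-mean-square difference in centred log2 CPM over 12 libraries. The nearest to Vcam1 was Il13ra1, a chain of the interleukin-13 receptor, at 0.0676, and the nearest to Birc3 was Castor2, a regulator of mTORC1, at 0.0851. Etl4 was nearest to Relb, at 0.108, and Zmat3 was nearest to Tnfaip3, at 0.119. Il13ra1 had line means, taken on log2 CPM and converted back, of 36.7 CPM in F5, 31.9 CPM in G5 and 38.1 CPM in H7, against 56.03 CPM in the parental line.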
